A study of Homo sapiens with 3 samples.

Results

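The guides against olfactory receptor genes in a pooled GeCKO knockout screen of the established human gastric cancer line NUGC3 were examined as a set in which Cas9 cuts the genome but no gene needed by the line is expected to be lost. Members were the guides whose target symbol has the form of a human olfactory receptor gene (OR, a family number, 1 or 2 letters for the subfamily, and a member number). There were 1091 such guides among 62916, against 368 receptors of 17 families and 170 subfamilies. Of the receptors, 359 had 3 guides, 5 had 2 guides and 4 had 1 guide. The comparison set was the 1000 non-targeting guides, which carry the same backbone but have no target in the human genome. All 3 groups were NUGC3 cells carrying the library. One was labelled DMSO day 0, the starting point. Another grew in DMSO, the drug solvent, until day 14, and the last grew in RTX at 10 nM until day 14. What RTX stands for is not written in the labels, whose title concerns antifolate drugs. Groups follow the sample titles, because a treatment note gives the day 0 cells 14 days of DMSO. Each group was 1 library, so no difference between groups has a replicate check, and values over guides describe these libraries only. Guides of 1 receptor share a target and are not replicates of a condition.

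Olfactory receptors are G protein-coupled receptors of sensory neurons in the nose. A bound odorant acts through the G protein subunit GNAL and the adenylyl cyclase ADCY3 to open a cyclic nucleotide-gated channel. The coding sequence of most of these receptors lies in a single exon, and the genes stand in tandem arrays that arose by duplication, so close relatives share long stretches of sequence. Class I receptors, families 51 to 56, stand together in an array on chromosome 11, and the class II families are spread over many chromosomes. Most of the receptors are silent outside the nose, which is why guides against them are used as controls for the act of cutting, since a double-strand break can itself slow growth. Expression was not measured in these libraries, so the assumption that NUGC3 does not use the receptors rests on their known tissue pattern.

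The receptor guides were well covered. They held 300657 of 16547572 reads at day 0, 359003 of 18805737 after DMSO and 308307 of 17344507 after RTX. A receptor guide had a median of 242 reads at day 0, 276 after DMSO and 240 after RTX. For a non-targeting guide the medians were 212.5, 279.5 and 241. The receptor guides make up 1.73% of all guides, and their share of reads was 1.82% on day 0 (95% Wilson interval 1.81% to 1.82%), 1.91% with DMSO (1.90% to 1.92%) and 1.78% with RTX (1.77% to 1.78%). Non-targeting guides took 1.51%, 1.74% and 1.61%. Both sets thus took their largest share in DMSO at day 14. These intervals cover counting error only, since reads from PCR are not independent molecules.

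Among the receptor guides, 0 of 1091 had no read at day 0, which allows a share of up to 0.275% (3 counts of the total). In each day 14 library 2 receptor guides had no read. Ratios are log2 of normalized values with 5 added to each, for guides whose day 0 value was 10 or more. A change is understated on this scale where reads are few. Reads quoted for guides are counts not scaled for library size, so a count can rise where its ratio falls. The filter kept 1086 of the 1091 receptor guides and 991 of the non-targeting guides. The 5 left out target OR10H5, OR11H2, OR2B11, OR5H15 and OR5M1, with 2 to 8 reads at day 0.

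DMSO at day 14 was set against day 0 to show how guide abundance drifted without drug. Receptor guides stood slightly above the middle of the library and below the non-targeting guides. Their median log2 ratio was 0.064 (quartiles -0.28 and 0.35), against 0.19 (-0.11 and 0.49) for the non-targeting guides and -0.00051 for all guides. The receptor median was lower than the non-targeting median by -0.13 on the log2 scale, which is a change of -8.3%. The lag was present across the distribution, with -0.23 at the 5th percentile, -0.17 at the 25th, -0.14 at the 75th and -0.076 at the 95th. A log2 ratio of -1 or lower was found for 39 receptor guides, or 3.59% (95% Wilson interval 2.64% to 4.87%), where the share of all guides was 7.52%. The non-targeting share was 2.02% (1.31% to 3.10%). A ratio of 1 or higher was found for 31 receptor guides, or 2.85%, beside 2.32% of all guides and 3.53% of non-targeting guides. Guides against the proteins of the cytosolic ribosome, which every dividing cell needs, were lost to a larger extent in DMSO. Of those 221 guides, 37.6% were at -1 or lower, and their median was -0.66. In RTX over day 0 they gave no such scale, with a median of -0.029, 8.14% at -1 or lower and a median -0.14 from that of the non-targeting guides, close to the receptors' -0.11. Their median in RTX over DMSO was 0.53, and 30.3% were at 1 or higher.

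RTX at day 14 against day 0 gave a similar lag. The receptor median was -0.0072 (quartiles -0.32 and 0.29), the non-targeting median 0.11 (-0.21 and 0.41) and the median of all guides -0.00088. The receptor median was thus lower than the non-targeting one by -0.11, a change of -7.6%. Both comparisons with day 0 use the same day 0 library, so the likeness of the lags is not independent evidence. Receptor guides at -1 or lower numbered 52, or 4.79% (95% Wilson interval 3.67% to 6.23%), near the 5.32% of all guides and above the 2.72% (1.88% to 3.94%) of the non-targeting guides. At 1 or higher stood 27 receptor guides, or 2.49%, beside 3.18% of all guides and 3.03% of the non-targeting guides.

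RTX against DMSO at day 14 compares the drug with its solvent directly, and here the receptor guides and the non-targeting guides were nearly level. Their medians were -0.072 (quartiles -0.44 and 0.27) and -0.10 (-0.46 and 0.25), which differ by 0.030 on the log2 scale, or 2.09%. Both lay below the median of all guides, which was 0. Receptor guides at -1 or lower numbered 77, or 7.09% (95% Wilson interval 5.71% to 8.77%), beside 5.43% of all guides and 6.05% of the non-targeting guides. Those at 1 or higher numbered 55, or 5.06% (3.91% to 6.53%), beside 7.89% of all guides and 4.24% of the non-targeting guides. The sign of each set's median is relative to all guides. Scaled so that the non-targeting median is 0, the receptor median was -0.13 in DMSO over day 0, -0.11 in RTX over day 0 and 0.030 in RTX over DMSO.

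The spread of the receptor guides was close to that of the non-targeting guides. The SD of the log2 ratio over guides was 0.53 for both sets in DMSO over day 0, 0.56 for both in RTX over day 0, and 0.67 for receptors against 0.64 for non-targeting guides in RTX over DMSO. Counting error alone would give the receptor guides 0.15, 0.16 and 0.16. The SD over all guides was 0.66, 0.60 and 0.73. The spread fell with depth. In the lowest tertile of day 0 abundance (up to 178 normalized reads) the receptor SD was 0.69 in DMSO over day 0, 0.76 in RTX over day 0 and 0.95 in RTX over DMSO. In the highest tertile (above 325 normalized reads) it was 0.35, 0.36 and 0.40. A receptor guide at -1 or lower in RTX over DMSO was found for 15.8% of 342 guides in the lowest tertile and 1.03% of 390 in the highest. The non-targeting shares were 12.2% and 1.36%, and those of all guides 11.1% and 1.22%.

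Day 0 abundance was higher for the receptor guides than for the non-targeting guides, so the lag was also read within these tertiles. In DMSO over day 0 the receptor median minus the non-targeting median was -0.12 in the lowest tertile, -0.099 in the middle and -0.16 in the highest. The values in RTX over day 0 were -0.18, -0.13 and -0.028. In RTX over DMSO it was -0.038, 0.0027 and 0.086. The lag in DMSO was thus present at every depth, while that in RTX over day 0 was small for the most abundant guides.

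The receptors were next divided by class. Class I held 156 guides against 52 receptors, all past the filter, and class II held 935, of which 930 passed. In DMSO over day 0 the median was 0.11 for class I and 0.058 for class II, a difference of 0.053. The medians in RTX over day 0 were 0.0090 and -0.0074, and in RTX over DMSO -0.11 and -0.056. Class I guides spread less in DMSO over day 0, with an SD of 0.44 against 0.55. Of class I, 2 guides, or 1.28% (95% Wilson interval 0.352% to 4.55%), were at -1 or lower there, against 37 guides, or 3.98% (2.90% to 5.44%), of class II. The intervals overlap. In each class the median difference from the other was small beside the quartiles, which for class I in DMSO over day 0 were -0.19 and 0.37.

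Of the 17 families, 14 had at least 15 guides past the filter. In both comparisons with day 0 all 14 family medians lay below the non-targeting median. The median of all guides lay below it too. The families divide the same guides that gave the receptor lag, so this adds no separate support. Family medians ranged from -0.21 for family 7 to 0.18 for family 13 in DMSO over day 0. In RTX over day 0 the range was from -0.18 for family 7 to 0.087 for family 13. In RTX over DMSO they ranged from -0.16 for family 10 to 0.25 for family 11, and 6 of the 14 lay below the non-targeting median. The largest family, family 2 with 187 guides, stood at 0.11, 0.047 and -0.010 in the order DMSO over day 0, RTX over day 0 and RTX over DMSO. Family 5, with 139 guides, stood at 0.017, 0.037 and -0.011, and family 4, with 132, at 0.053, -0.020 and -0.033. Family 6, with 87 guides, stood at 0.12, -0.041 and -0.16, and family 1, with 78, at 0.099, -0.0088 and -0.030. Of the class I families, family 51 stood at 0.075, -0.097 and -0.085 over 66 guides, family 52 at 0.13, 0.075 and -0.13 over 72, and family 56 at 0.11, 0.076 and -0.043 over 18.

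Family 7 was the lowest of these families against day 0 with both solvent and drug. Its 33 guides against 11 receptors, all on chromosome 19, had 12 guides above 0 in DMSO over day 0 and 7 in RTX over day 0. Beside these, 31284 and 31263 of all 62610 guides were above 0, and 608 and 532 of 1086 receptor guides. At -1 or lower were 4 family 7 guides in DMSO over day 0, or 12.1%, beside 7.52% of all guides. In RTX over day 0 there were 6, or 18.2%, beside 5.32%. Gene medians in DMSO over day 0 ran from -1.07 for OR7G1 to 0.31 for OR7G3. Without OR7G1, a receptor taken out after its values were seen, the family median was -0.11 in DMSO over day 0 and -0.18 in RTX over day 0. The 56 guides against all 19 receptors on chromosome 19 stood at -0.069, -0.15 and -0.053 in the 3 comparisons. The 33 guides of family 7 are among them. Of the 56, 10.7% were at -1 or lower in DMSO over day 0, or 6 guides, beside the same 7.52% of all guides. In RTX over day 0 it was 14.3%, or 8 guides, beside the same 5.32%. Family 7 supplied 4 of those 6 and 6 of those 8. How many sites a guide matches was not tested, because guide sequences were not used here.

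Family 11 stood at -0.19 in DMSO over day 0, -0.056 in RTX over day 0 and 0.25 in RTX over DMSO over 23 guides. Its spread was the widest of the 14 families in DMSO over day 0, with an SD of 0.81, and 4 guides, or 17.4%, were at -1 or lower, beside 7.52% of all guides. Its lowest receptor was OR11H12. Reads of the first OR11H12 guide went from 292 to 121 with DMSO and 211 with RTX, those of the second from 304 to 282 and 246, and those of the last from 142 to 43 and 61. All OR11H12 guides were below their day 0 level in both cultures, at -1.39, -0.26 and -1.76 in DMSO over day 0. Without OR11H12 the family median was -0.042, -0.030 and 0.17 in the 3 comparisons.

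Close relatives were compared through the size of the subfamily, a grouping chosen after the data were examined. Size counts only receptors of this library, so relatives that the library does not target were left out. Guides against the 91 receptors that are alone in their subfamily in the library had a median of 0.089 in DMSO over day 0. Those in subfamilies of 2 to 4 receptors stood at 0.040, and those in subfamilies of 5 or more at 0.088. The medians in RTX over day 0 were -0.037, -0.0071 and 0.0082, and in RTX over DMSO -0.12, -0.087 and -0.012. By median the largest subfamilies were not the lowest in any of the 3 comparisons. The shares at -1 or lower in DMSO over day 0 were 3.30%, 2.84% and 4.78% by rising subfamily size, beside 7.52% of all guides. In RTX over day 0 they were 4.76%, 5.91% and 3.37%, beside 5.32%. In RTX over DMSO they were 5.49%, 9.19% and 5.62%, beside 5.43%.

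The genomic arrays of the receptors were taken from gene order in the RefSeq annotation of GRCh38.p14, which placed 367 of 368 receptors on 17 chromosomes. Arrays were runs of receptors with at most 5 other protein-coding genes between neighbours. Of these, 19 held at least 5 receptors of the library, 324 in all. Array medians ranged from -0.22 to 0.23 in DMSO over day 0, from -0.34 to 0.15 in RTX over day 0 and from -0.50 to 0.084 in RTX over DMSO. Guides against up to 10 of the nearest other genes of the library on each side, which lie in the same part of the chromosome, gave medians per array of -0.12 to 0.20, -0.17 to 0.16 and -0.27 to 0.093. Array and flank medians gave a Pearson's r of 0.36, 0.32 and 0.32, with a Spearman's rho of 0.25, 0.11 and 0.39, over 19 arrays that share their libraries; these are descriptions. The array median was above its flanks in 10, 7 and 6 of the 19.

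The class I array on chromosome 11, from OR52B4 to OR52W1 with 52 receptors, stood at 0.11 in DMSO over day 0, 0.0090 in RTX over day 0 and -0.11 in RTX over DMSO. Its flanks stood at 0.087, -0.052 and -0.26. The largest array, 55 receptors on the same chromosome from OR4B1 to OR5AK2, stood at 0.054, 0.0092 and -0.093, with flanks at -0.030, -0.041 and -0.073. An array of 39 receptors on chromosome 1, from OR2B11 to OR14I1, stood at 0.067, 0.063 and 0.032. The highest array in DMSO over day 0 was that on chromosome 6 from OR2W1 to OR2H2, with 12 receptors, at 0.23 (flanks 0.047). The lowest there was OR10H2 to OR10H4 on chromosome 19, with 5 receptors, at -0.22 (flanks -0.11). In both comparisons with RTX the lowest array was OR5AN1 to OR10V1 on chromosome 11, at -0.34 in RTX over day 0 and -0.50 in RTX over DMSO over 24 guides, with flanks at -0.10 and -0.15. The 3 arrays on chromosome 19 were all below 0 in DMSO over day 0, at -0.092, -0.051 and -0.22, and their flanks were below 0 too, at -0.012, -0.052 and -0.11. In RTX over day 0 the arrays stood at -0.16, -0.24 and -0.14 and the flanks at -0.13, 0.025 and 0.027. The flanks of OR2Z1 to OR7D4 were thus below 0 with their array there, and those of the other arrays were not. The arrays in RTX over DMSO stood at -0.12, 0.058 and -0.044 and the flanks at -0.019, 0.093 and 0.0013.

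Guides of the same receptor were nearly unrelated in their ratios. Over 1072 pairs of guides of the same receptor, Pearson's r was 0.017 in DMSO over day 0, 0.049 in RTX over day 0 and 0.021 in RTX over DMSO. Over 54975 pairs from all genes it was 0.15, 0.10 and 0.094. These are correlations across guide pairs within the same libraries and are given as descriptions. Of the 354 receptors with 3 guides past the filter, 70 had all 3 above 0 in DMSO over day 0, or 19.8%, beside 14.3% of all genes with 3 guides. All 3 were below 0 for 31 receptors, or 8.76%, beside 14.7% of all genes. The receptors in RTX over day 0 numbered 48 above and 50 below, or 13.6% and 14.1%, beside 14.2% and 14.0%. In RTX over DMSO they numbered 28 above and 61 below, or 7.91% and 17.2%, beside 14.1% and 13.5%. These splits count the signs of the same ratios that gave the receptor medians, so they add no separate support.

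Strong changes shared by all guides of a receptor were rare. All 3 guides were at -1 or lower for 0 of 354 receptors in DMSO over day 0, beside 0.591% of all genes, for 1 in RTX over day 0, beside 0.149%, and for 0 in RTX over DMSO, beside 0.011%. All 3 were at 1 or higher for 0, 0 and 1 receptors, beside 0%, 0.0938% and 0.408% of all genes. The receptor low in RTX over day 0 was OR7G1. From day 0 to DMSO and to RTX, the first guide had 86, 43 and 36 reads, the second 183, 81 and 83, and the last 275, 178 and 130. Every OR7G1 guide was lower than at day 0 in both day 14 libraries, with log2 ratios of -1.28 to -0.77 in DMSO and -1.16 to -1.06 in RTX. The median in RTX over DMSO was -0.10.

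The receptor high in RTX over DMSO was OR52E2, of class I. Listed as day 0, DMSO and RTX, the first guide had 112, 58 and 147 reads, the second 27, 16 and 36, and the last 258, 187 and 424. The RTX value was the highest of the 3 libraries and the DMSO value the lowest for each guide. The log2 ratios were 1.08 to 1.40 in RTX over DMSO, -1.04 to -0.61 in DMSO over day 0 and 0.35 to 0.70 in RTX over day 0. OR2W1, which had 2 guides, followed the same order, with 124, 104 and 230 reads for the first and 379, 245 and 423 for the second. Every guide of OR11H4 and OR8G5 did so too. How many receptors or other genes show this order was not counted.

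The receptors with the most extreme medians and guides of 1 sign were picked from these same values and are given as a description. In DMSO over day 0 the lowest were OR11H12 at -1.39, OR7G1 at -1.07, OR13J1 at -0.82, OR52E2 at -0.74 and OR52B4 at -0.70. The highest were OR5T1 at 0.76, OR13C4 at 0.72, OR2AT4 at 0.67, OR10W1 at 0.59 and OR52K1 at 0.56. In RTX over day 0 OR7G1 at -1.10 was followed by OR1J4 at -1.08, OR6M1 at -0.91, OR1D2 at -0.82 and OR5M11 at -0.81, while OR4M1 at 0.86, OR2A2 at 0.80, OR13G1 at 0.65, OR51I2 at 0.58 and OR5J2 at 0.54 were highest. In RTX over DMSO the lowest were OR7G3 at -1.63, OR1D2 at -1.02, OR10C1 and OR5H6 at -0.95 and OR2B2 at -0.90. The highest were OR52E2 at 1.30, OR13J1 at 1.10, OR11H4 at 0.88, OR5B12 at 0.59 and OR2Y1 at 0.58. Medians at -1 or lower in DMSO over day 0 were those of OR11H12, OR7G1 and OR5B21, 0.847% of the receptors with 3 guides, beside 3.38% of all genes. OR4S2 alone was at 1 or higher there, at 1.18, beside 0.110% of all genes. In RTX over day 0 OR7G1 and OR1J4 were at -1 or lower, or 0.565%, beside 1.39% of all genes, and 0 receptors were at 1 or higher, beside 0.668%. In RTX over DMSO OR7G3, OR5B17 and OR1D2 were at -1 or lower, or 0.847%, beside 0.845%, and OR52E2, OR13J1 and OR5P2 at 1 or higher, or 0.847%, beside 2.80%. OR5B21, OR4S2, OR5B17 and OR5P2 had guides of both signs.

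The guides of OR7G3 differed in depth and in ratio. Its median in RTX over DMSO, -1.63, was the value of its first and deepest guide, while the second stood at -0.31 and the last at -2.03. Over day 0, DMSO and RTX the first guide had 661, 1357 and 394 reads, the second 556, 772 and 563, and the last 56, 79 and 14. The first and the last guide were below their day 0 level in RTX, and the middle one was not, with a log2 ratio of 0.010 in RTX over day 0. For OR1D2 the same libraries gave 301, 308 and 177 reads, 83, 106 and 45 reads, and 124, 164 and 51 reads, so that all its guides were lowest in RTX. For OR13J1 they gave 479, 301 and 383 reads, 10, 1 and 25 reads, and 116, 123 and 245 reads. Its highest ratio, 2.40 in RTX over DMSO, rests on a guide with 1 read in DMSO. The last OR13J1 guide, with 116 and 123 reads, had a log2 ratio of -0.072 in DMSO over day 0.

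Read counts of single guides were then compared by edgeR's exact test, taking its dispersion from the non-targeting guides, with Benjamini-Hochberg adjustment over 62610 guides. That dispersion was 1 value for all guides, whatever their depth. The SD of the non-targeting ratios in DMSO over day 0 was 0.70 in the lowest abundance tertile and 0.36 in the highest. In RTX over DMSO it was 0.84 and 0.43. An adjusted p may thus be too small where reads are few, which was not tested. Because the non-targeting guides set the dispersion, few of them can be called, and their called share is no independent benchmark. The test compares 2 libraries and not the conditions. For DMSO over day 0 it called 3 receptor guides lower, or 0.276%, beside 2.08% of all guides and 0.303% of the non-targeting guides, and 2 higher, or 0.184%, beside 0.131% of all guides and 0.303% of non-targeting ones. For RTX over day 0 it called 4 lower, or 0.368%, beside 0.664% of all guides, and 2 higher, or 0.184%, beside 0.193%. The non-targeting shares there were 0.303% and 0.605%. In RTX over DMSO it called 9 lower, or 0.829%, beside 0.393% of all guides and 0.303% of the non-targeting guides, and 6 higher, or 0.552%, beside 0.931% and 0.505%. With the dispersion of the receptor guides instead, RTX over DMSO gave 7 lower, or 0.645%, beside 0.308% of all guides, and 2 higher, or 0.184%, beside 0.735%. In the authors' deposited table an FDR under 0.05 with a lower value was given to 2.20% of the receptor guides in DMSO over day 0, beside 5.84% of all guides and 0.900% of the non-targeting guides. With a higher value it was given to 11.7% of the receptor guides, beside 9.77% and 17.6%. For RTX over day 0 the authors' deposited table gave 3.30% lower, beside 4.04% of all guides and 1.5% of the non-targeting guides, and 9.72% higher, beside 11% and 13.5%. For RTX over DMSO the authors' deposited table gave 5.96% lower, beside 4.29% and 5.30%, and 9.17% higher, beside 13.9% and 8.30%.

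Each guide that passed in edgeR's exact test was the only one of its receptor called in that comparison. An OR6C6 guide went from 246 reads on day 0 to 1439 with DMSO and 440 with RTX (log2 ratio in DMSO over day 0 2.37, edgeR's exact test, adjusted p = 0.00209). The other OR6C6 guides stood at -0.10 and -0.16 there. An OR2V2 guide went from 293 reads to 60 with DMSO and 120 with RTX (log2 ratio -2.35, edgeR's exact test, adjusted p = 0.00311), while the others stood at -0.31 and 0.12. Guides against OR2B11 and OR4D5 were also called lower in DMSO over day 0 and one against OR2A12 higher. The OR2A12 guide had 26, 129 and 24 reads in the order day 0, DMSO, RTX.

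In RTX a guide against OR1F1 had 229 reads, against 19 at day 0 and 26 in DMSO. Its log2 ratio was 3.28 in RTX over day 0 (edgeR's exact test, adjusted p = 8.82e-05) and 3.04 in RTX over DMSO, the highest of any receptor guide in both. The other OR1F1 guides stood at -0.14 and 0.10 in RTX over day 0. A guide against OR5D13 had 77, 97 and 439 reads in the order day 0, DMSO, RTX, while its companions went from 72 and 389 at day 0 to 72 and 333 in RTX. In the other direction, a guide against OR4N4 went from 39 reads to 21 with DMSO and 0 with RTX, at least 13.1-fold lower in RTX than at day 0 against a floor of 3 reads in the library. A guide against OR4M2 had 62, 166 and 13 reads, one against OR1I1 81, 88 and 9, and one against OR2T27 207, 259 and 43. For OR1I1 the other guides stood at 0.19 and 0.55 in RTX over day 0, and for OR4M2 at 0.56 and -0.14. The remaining called guides were lower in RTX over day 0 for OR11L1, lower in RTX over DMSO for OR13C4, OR1J4, OR6K6, OR6M1 and OR6N2, and higher there for OR13J1, OR3A1, OR4D5 and OR5H2. The RTX over DMSO calls of OR1J4 and OR2T27, both lower, and of OR3A1, OR4D5, OR5D13 and OR5H2, all higher, were lost with the dispersion of the receptor guides. Guides with under 10 reads after passing the day 0 filter numbered 3 in DMSO, against OR13J1, OR51S1 and OR5AR1, beside 0.977% of all guides, and 7 in RTX, beside 0.807%. As shares of the 1086 receptor guides these were 0.276% and 0.645%.

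Of the 9 receptors with fewer than 3 guides, OR2A1 and OR2A42 are known as near-identical duplicates. Over day 0, DMSO and RTX, the single guide of OR2A1 had 260, 447 and 208 reads and that of OR2A42 325, 554 and 289. Their log2 ratios were alike, with 0.61 and 0.60 in DMSO over day 0, -0.32 and -0.17 in RTX over day 0 and -0.95 and -0.79 in RTX over DMSO. OR8U1 and OR8U8, also with 1 guide each, were not alike, with 1.10 and 0.047 in DMSO over day 0 and -1.19 and -0.046 in RTX over DMSO. The OR8U1 guide had 74, 183 and 70 reads and the OR8U8 guide 350, 404 and 355. Counts of related receptors are uncertain where a guide matches both.

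A list of 10 receptors with reported roles outside the nose was also read. In DMSO over day 0 their medians ranged from -0.57 for OR7C1 to 0.67 for OR2AT4, and 7 of 10 were above 0. In RTX over day 0 they ranged from -0.92 for OR1A2 to 0.45 for OR51E2, with 4 above 0. In RTX over DMSO the range was from -1.02 for OR1D2 to 0.28 for OR51E2, with 2 above 0. Beside these receptor medians, single guides above 0 in the 3 comparisons numbered 608, 532 and 480 of all 1086 receptor guides. Medians of 3 guides and single guides are unlike units, and medians above 0 were not counted over all receptors. The median over the 10 was -0.35 in RTX over DMSO, beside -0.073 over all 354 receptors with 3 guides. Of the list, OR1D2, OR1A1 and OR1A2 stand in 1 array on chromosome 17, from OR1D5 to OR1E2. That array stood at -0.27 in RTX over DMSO, with flanks at -0.13. OR51E1 and OR51E2 stand in the class I array, at -0.11 there. Whether the list differs from the arrays of its members was not tested. OR51E2, a receptor known from prostate, had 660, 819 and 905 reads over day 0, DMSO and RTX for its first guide, 516, 641 and 553 for its second and 157, 188 and 248 for its last. Its guides differed little from day 0 in DMSO, with log2 ratios of 0.098 to 0.15. OR51E1, its neighbour in class I, stood at 0.048, -0.24 and -0.32. OR2AT4, known from skin, had 73, 162 and 102 reads, 139, 235 and 129 reads, and 111, 201 and 149 reads in its guides, so that each guide was highest in DMSO. OR1D2, known from sperm, and OR1A1 and OR1A2 stood at -1.02, -0.38 and -0.84 in RTX over DMSO. Guides of OR1A1 ran from -0.61 to 0.29 there and those of OR1A2 from -1.89 to 0.29, so both had guides of both signs.

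Other parts of the odour pathway and other chemoreceptors were read beside the receptors. Of 19 listed genes of olfactory signalling, 18 were measured, with 54 guides. None had all guides at 1 or higher or all at -1 or lower in any comparison. Their guides had a median of 0.058 in DMSO over day 0, 0.036 in RTX over day 0 and 0.019 in RTX over DMSO. By gene, their medians ran from -0.76 to 0.51 in DMSO over day 0, from -0.43 to 0.88 in RTX over day 0 and from -0.82 to 0.75 in RTX over DMSO. The 102 guides against bitter taste receptors, vomeronasal receptors and trace amine receptors had a median of 0.055 in DMSO over day 0, 0.072 in RTX over day 0 and -0.062 in RTX over DMSO. Relative to the non-targeting guides these are differences of -0.13, -0.035 and 0.039. Within them, the 72 taste receptor guides stood at 0.17, 0.11 and -0.17, the 12 vomeronasal receptor guides at -0.22, -0.28 and -0.071, and the 18 trace amine receptor guides at -0.19, -0.11 and 0.11.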

How the data were processed

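Genomic DNA of the 3 NUGC3 cultures was amplified by PCR in 2 steps and sequenced, per the labels' protocols. The authors deposited 3 guide tables, 1 per pair of libraries, made with MAGeCK 0.5.7, and name the build hg19, per the submitters' processing notes. The matching of reads to guides was not stated in these sources. The deposited columns, per the file headers, are control and treatment values, a normalized signal of abundance that behaves as reads over 1 size factor per library, with a p-value and an FDR (q-value). Within a tolerance of 0.1, 99.9968% or more of the values came out as whole reads, and both tables of the DMSO library gave the same reads.

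Log2 ratios used a pseudocount of 5 and guides with at least 10 normalized day 0 reads. Medians over guides carry no p. The dispersion of edgeR 4.0.16 (R 4.3.3) came from the non-targeting guides with both libraries taken as replicates, and calls had an adjusted p under 0.05. The script of this test was run on simulated counts with known changes, which is no check of the calls on these libraries. Intervals are at 95%. Named receptors were the 5 highest and 5 lowest medians per comparison with 3 guides of 1 sign, the 3 highest and 3 lowest guides, and a list of receptors reported outside the nose. Others, among them all called guides, OR2W1 and receptors with fewer than 3 guides, were named after their values were seen. Members and lists were chosen with earlier results of these data known. The alternatives changed the pseudocount (1, 20), the filter (none, 50 reads, or 100 to 500 reads at day 0), the scaling (non-targeting guides, equal totals) and the guide calls. Protein identity between receptors was not used here. Gene order came from RefSeq GRCh38.p14, and because its build differs no coordinates are given.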

Additional observations from a re-analysis of the deposited data

How the results depend on the processing

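Of 90 values recomputed under the alternatives, 70 stayed within their interval or within 1.5 times the count. The receptor median minus the non-targeting median kept its sign under the 5 changes of pseudocount, filter or abundance range, at -0.15 to -0.12 in DMSO over day 0, -0.12 to -0.098 in RTX over day 0 and 0.029 to 0.041 in RTX over DMSO. The scalings shift every guide alike, so they cannot move it and are not counted for it. For the other values the cause of a move was not tested. Scaled to the non-targeting guides, the receptor median was -0.13, -0.11 and 0.030 in these comparisons, so it changed sign in DMSO over day 0 and in RTX over DMSO. The share at -1 or lower was then 6.63%, 6.45% and 5.43%, where that of all guides also moved, to 10.6%, 6.75% and 4.24%. The share at 1 or higher was 1.75% in DMSO over day 0 (all guides 1.14%) and 1.38% in RTX over day 0 (all guides 2.27%). With equal totals the median in RTX over day 0 was -0.066. With a pseudocount of 20 the share at -1 or lower was 2.30%, 2.76% and 5.34%, beside 5.57%, 3.43% and 3.83% of all guides. At 1 or higher in RTX over day 0 it was 1.10%, beside 2.30% of all guides and 2.22% of the non-targeting guides. Among guides with 100 to 500 day 0 reads the share at 1 or higher was 1.64% in DMSO over day 0, beside 1.18% of all guides and 2.01% of the non-targeting guides. In RTX over day 0 it was 0.884%, beside 2.21% and 2.01%, and at -1 or lower in RTX over DMSO it was 5.56%, beside 4.23% and 4.55%. The authors' FDR called 152, 142 and 165 receptor guides where edgeR called 5, 6 and 15. With the dispersion of the receptor guides edgeR called 9 in RTX over DMSO, 7 lower and 2 higher. The planned count without near-identical receptors was not run. No paired analysis was possible because each condition had 1 library. Ratios of guides with few day 0 reads spread more widely.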
